A study of Arabidopsis thaliana with 12 samples.

Results

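The transcripts of 10 xyloglucan endotransglucosylase/hydrolase (XTH) genes were followed across whole Arabidopsis thaliana seedlings of 3 genotypes, with and without the bacterial peptide flg22. The genes were XTH4 (AT2G06850), XTH17 (AT1G65310), XTH18 (AT4G30280), XTH19 (AT4G30290), XTH22 (AT5G57560), XTH23 (AT4G25810), XTH24 (AT4G30270), XTH25 (AT5G57550), XTH31 (AT3G44990) and XTH33 (AT1G10550). They were chosen by gene identifier with earlier results of these data known. Counts of members set beside all genes or the other XTH genes are therefore descriptions. The members are 10 of the 33197 identifiers with values and 10 of the 33 XTH genes of the genome. All 10 passed the filter on low values that left 20753 genes for testing. After flg22, XTH18, XTH22 and XTH23 stood higher in every treated library than in any untreated one, as did 6.19% of all genes tested. XTH18 and XTH23 passed the test over the 3 genotypes. XTH22 passed it only when the repeat of the experiment entered the fit as a block. XTH22 and XTH18 together came to hold 20.3 to 22.8% of the transcript level of the whole family in the first repeat. In the second they came to hold 55.5 to 61.0%. XTH4 and XTH24, the most abundant members in most untreated libraries, did not pass the test for flg22, and no member passed a test between wild type and the mutant or the overexpressor.

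Seedlings were 10 days old and of the genotypes WT (labelled cultivar Col-0), asr3-1, a mutant of ASR3, and OX9, a single transgenic line in which the 35S promoter, active in most plant tissues, drives ASR3 with an HA tag. ASR3 belongs to the trihelix transcription factors. The cultivar is labelled for WT but not for the other genotypes. All seedlings had spent a night in 2 ml of water before they were left untreated (CK) or given flg22 for 30 min. The dose was 100 nM by the design text and 100 mM by the treatment protocol, a disagreement not settled here. No mock addition is described here for CK, so flg22 and the handling that came with adding it cannot be told apart. Each of the 6 groups had 2 libraries, 1 per independent repeat, and each library pooled RNA of 2 biological replicates, so p-values measure the spread between such pools. Levels are FPKM (fragments per unit of transcript length and of library size), which may be compared between genes because they are scaled to length.

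XTH enzymes cut xyloglucan, the main hemicellulose that coats cellulose in the walls of most land plants, and rejoin the cut end to another xyloglucan chain or, in some members, to water. They loosen or reinforce the growing wall and are encoded by a large gene family whose members differ in organ and in the signals they answer to. XTH22 was first described as TCH4, a gene raised by touch, and flg22 is a part of flagellin that the receptor FLS2 perceives at the cell surface.

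The feature shared by the enzymes is a short active site with a glutamate that attacks the sugar chain, an aspartate, and a glutamate that acts as acid and base. Its codons were found once in the coding sequence of each of the 10 genes and are shown because they place all members, including the lowly expressed ones, in the same enzyme class. They are read 5′ to 3′ from the RefSeq annotation of TAIR10.1, with the codons of glutamate, aspartate and glutamate in capitals.
XTH22: gacGAGataGATttcGAGtttttaggg
XTH23: gacGAGattGACtttGAGttcttggga
XTH24: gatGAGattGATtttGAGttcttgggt
XTH25: gacGAAatcGATttcGAGtttcttggt
XTH17: gatGAGatcGATttcGAGttcttggga
XTH18: gatGAGattGATttcGAGttcttagga
XTH19: gatGAGattGATttcGAGtttttgggg
XTH4: gacGAGataGACtttGAGttccttgga
XTH31: gatGAGgtcGATatcGAGtttctaggg
XTH33: gacGAGataGACataGAAttgttgggt

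The gene models differ more outside this site. Coding sequences of XTH17 and XTH18 were identical at 92.2% of aligned bases, those of XTH18 and XTH19 at 89.2%, and those of XTH17 and XTH19 at 88.6%, while XTH22 and XTH23 shared 80.9%. The longest run of identical bases between transcripts of members was 68, between XTH18 and XTH19, and no stretch of 100 bases, the read length, from any member occurred in the transcripts of another gene. The handling of reads with several matches is not stated in the labels or file headers.

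Several members are neighbours. XTH24 (4:14819192-14820595), XTH18 (4:14825757-14827211) and XTH19 (4:14828712-14830224) follow each other on the minus strand of chromosome 4 with gaps of 5161 and 1500 bases. XTH25 (5:23304782-23306440) and XTH22 (5:23307006-23308680) lie 565 bases apart on the minus strand of chromosome 5. The library strand is not stated, so reads of overlapping or antisense transcripts cannot be told apart there.

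The 250 bases before the annotated start (TAIR10.1, RefSeq) are printed for the members with the 2 highest flg22 differences, XTH18 (chr4:14827212-14827461) and XTH22 (chr5:23308681-23308930), and for the member with the lowest, XTH25 (chr5:23306441-23306690). All 3 are given 5′ to 3′ on the minus strand, with motif matches in capitals.
XTH18 promoter: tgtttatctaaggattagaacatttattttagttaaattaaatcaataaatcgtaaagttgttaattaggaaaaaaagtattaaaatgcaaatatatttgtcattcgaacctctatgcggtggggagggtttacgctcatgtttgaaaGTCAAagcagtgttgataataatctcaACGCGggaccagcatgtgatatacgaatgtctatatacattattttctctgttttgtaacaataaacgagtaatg
XTH22 promoter: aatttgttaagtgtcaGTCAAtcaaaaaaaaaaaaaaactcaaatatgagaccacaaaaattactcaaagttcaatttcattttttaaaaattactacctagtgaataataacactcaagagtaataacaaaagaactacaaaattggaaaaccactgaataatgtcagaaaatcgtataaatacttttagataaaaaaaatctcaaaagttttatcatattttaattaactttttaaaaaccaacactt
XTH25 promoter: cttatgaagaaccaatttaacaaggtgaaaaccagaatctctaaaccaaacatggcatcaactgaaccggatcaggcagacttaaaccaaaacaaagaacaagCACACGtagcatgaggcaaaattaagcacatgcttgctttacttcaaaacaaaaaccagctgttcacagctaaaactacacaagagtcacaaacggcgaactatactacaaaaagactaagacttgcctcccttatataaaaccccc

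A set of 5 motifs were searched on both strands of these windows in all 27443 gene promoters. TTGAC, the core of the W-box bound by WRKY factors, was in 5 of 10 members (XTH18, XTH19, XTH22, XTH23 and XTH31) and in 44.9% of all promoters. CGCGT, the core of the box bound by calmodulin-binding CAMTA factors, was in XTH18 alone and in 6.87% of all promoters. CGTGNG, an element of brassinosteroid-regulated genes, was in XTH23 and XTH25 and in 12.5% of all promoters. CACGTG, the G-box, and GGTTAA, a GT element of the kind trihelix factors bind, were in none of the 10 windows and in 6.49% and 14.6% of all promoters. The share of members with a W-box core is thus close to that of all genes.

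Before the members, the labels were checked against ASR3. It stood at 383.5 to 590.4 FPKM in the 4 OX9 libraries, at 6.24 to 9.59 in the 4 of WT and at 2.50 to 6.58 in the 4 of asr3-1, so the mutant and WT ranges overlapped by a small margin. All 8 early flg22 markers had a difference above 0 over the 3 genotypes. Of these, 6 were called higher by limma (adjusted p under 0.05), against 3.83% of all genes. With the repeat as a block 8 of 8 were called, against 10.1%. Summed root markers (14 genes) ranged from 202.0 to 247.1 FPKM untreated and 173.2 to 249.9 with flg22, and summed green tissue markers (10 genes) from 46550 to 59790 and 40280 to 52050, with none of these genes at 0 in any library. In seedlings sequenced in bulk, fewer cells of a type and less RNA per cell cannot be told apart.

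Without flg22 the members spanned levels from 1.40 to 891.2 FPKM. XTH24, also known as MERI5 and linked to meristems, was at 241.8 to 400.1 FPKM in untreated repeat 1 and at 601.4 to 891.2 in untreated repeat 2. XTH4, an endotransglucosylase of growing tissue, was at 366.9 to 494.2 in repeat 1 and 443.1 to 471.5 in repeat 2. Between them they took first place in the family in all 6 untreated libraries, XTH4 in 2 and XTH24 in 4, and their ranges overlapped in repeat 1. XTH22 followed at 28.7 to 196.8 FPKM, a range that overlapped those of XTH31 (17.8 to 65.1), XTH17 (29.3 to 43.3) and XTH18 (24.8 to 38.3). XTH23 (11.6 to 19.6) and XTH19 (10.9 to 18.8) overlapped each other, and XTH25 (1.55 to 6.71) and XTH33 (1.40 to 3.58) were the lowest.

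**Figure D1:**
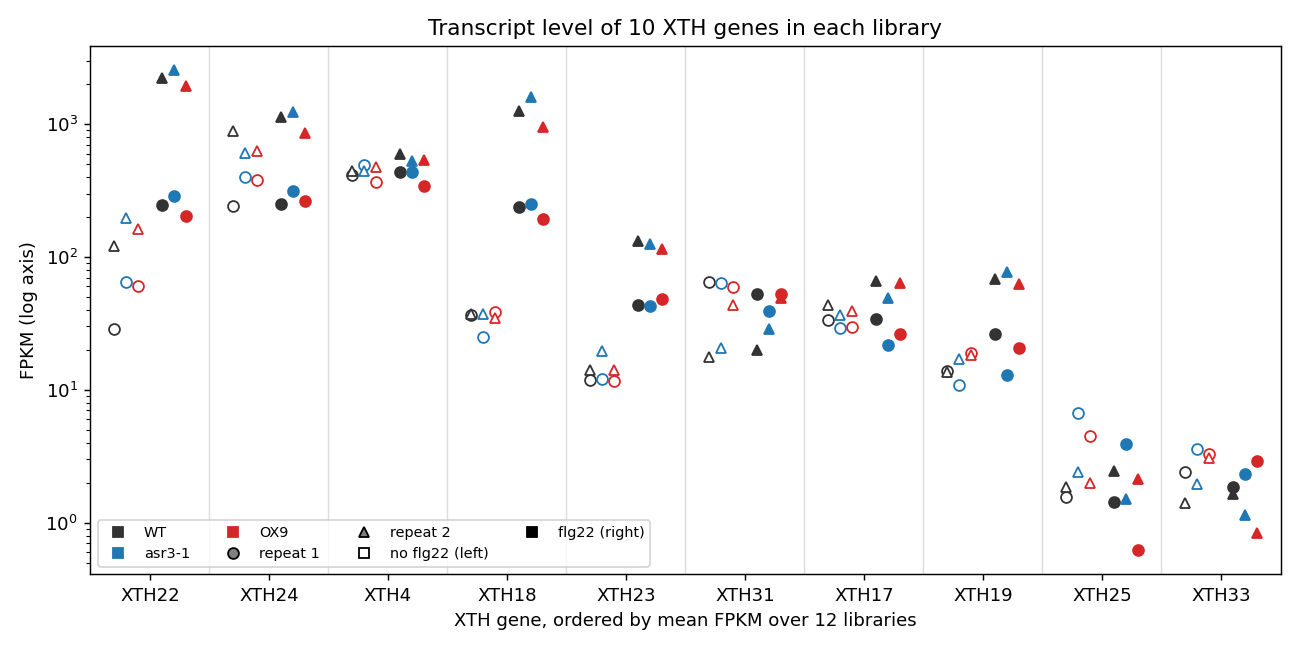
FPKM (log axis) of the 10 XTH genes in each of the 12 libraries, with genotype by colour, repeat by marker shape and treatment by fill, untreated on the left and flg22 on the right of each gene. XTH18, XTH22 and XTH23 are higher in every flg22 library than in any untreated one, and filled triangles (repeat 2) lie above filled circles (repeat 1) for them.

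The response to flg22 was largest in XTH18, which is expressed mainly in roots. In WT it went from 36.5 to 236.9 FPKM in repeat 1 and from 37.1 to 1259.3 in repeat 2. The asr3-1 libraries went from 24.8 to 251.8 and from 37.4 to 1593.0, and those of OX9 from 38.3 to 193.5 and from 34.5 to 945.6. All 6 untreated libraries were close together and all 6 treated ones far above them, with the treated libraries split by repeat. The mean difference over the 3 genotypes was 3.90 on the log2(FPKM + 1) scale (SE 0.62, adjusted p = 0.0144 by limma, Benjamini-Hochberg over all genes), place 91 of 20753 from the highest.

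XTH22, the touch gene, went from 28.7 to 245.7 FPKM in repeat 1 and from 121.8 to 2239.4 in repeat 2 in WT. The mutant libraries moved from 65.2 to 288.0 and from 196.8 to 2555.4, those of OX9 from 60.3 to 203.5 and from 162.6 to 1931.6. The groups did not overlap, although the lowest treated library, OX9 of repeat 1, was only slightly above the highest untreated one, asr3-1 of repeat 2. Its mean difference of 3.06 (SE 0.90) missed the threshold when repeats were not told apart (limma, adjusted p = 0.121) and passed it with the repeat as a block (limma, adjusted p = 0.0025).

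XTH23, the closest relative of XTH22 among the members by coding sequence, rose from a lower level. It went from 11.9 to 43.8 and from 14.2 to 131.9 FPKM in WT, from 12.0 to 42.6 and from 19.6 to 126.0 in asr3-1, and from 11.6 to 47.8 and from 14.1 to 114.8 in OX9, repeat 1 first. Treated and untreated libraries did not overlap, and within a repeat the genotypes lay close together. The mean difference was 2.37 (SE 0.39, adjusted p = 0.0158 by limma).

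XTH19, a root gene next to XTH18 on chromosome 4, was at 13.8 and 13.5 FPKM in untreated WT and 26.3 and 68.5 with flg22. It moved from 10.9 to 12.9 and from 16.97 to 77.2 in asr3-1, and from 18.8 to 20.6 and from 18.2 to 62.6 in OX9. Every treated library was above its own untreated counterpart, but the treated asr3-1 library of repeat 1 fell within the untreated range. Its mean difference of 1.22 (SE 0.48) did not pass over the 3 genotypes (limma, adjusted p = 0.26, and 0.057 with the block).

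In all, 2 of the 10 members were called higher over the 3 genotypes, where 3.83% of all genes tested were higher, and none was called lower, where 0.265% were. At an unadjusted p under 0.05, 4 members were higher and 0 lower. Counts at an unadjusted p over the 3 genotypes, here and for the lists below, have no share of all genes beside them. With the repeat as a block 3 members were higher against 10.1% of all genes (5.69% lower). With a repeat-by-treatment term added 4 were, XTH19 included. No share of all genes under that term is given here, so the rise to 4 is not a result about the members. Leaving out a single library takes the unblocked count to between 0 and 3. It falls to 0 without the untreated repeat 2 library of WT or OX9 or the untreated repeat 1 library of asr3-1, and to 1 without the untreated library of WT repeat 1 or of asr3-1 repeat 2. XTH18 and XTH23 then stood at an adjusted p of up to 0.057 by limma. The blocked count without single libraries was 3 or 4. All 6 pairs of treated and untreated libraries of the same genotype and repeat were higher in XTH18, XTH19, XTH22 and XTH23, against 12.5% of all genes, and lower in 0 members, against 10.8%. For each of these 4 genes the exact sign-flip test over 6 pairs gave p = 0.03125, the smallest it can give. Any gene with all 6 pairs in the same direction gets this p, so it only restates the count. Pairs of the same repeat also share that repeat's shift and are not independent. Complete separation of treated from untreated libraries, seen in XTH18, XTH22 and XTH23, held for 6.19% of all genes, and the reverse, in 0 members, for 1.33%.

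**Figure D2:**
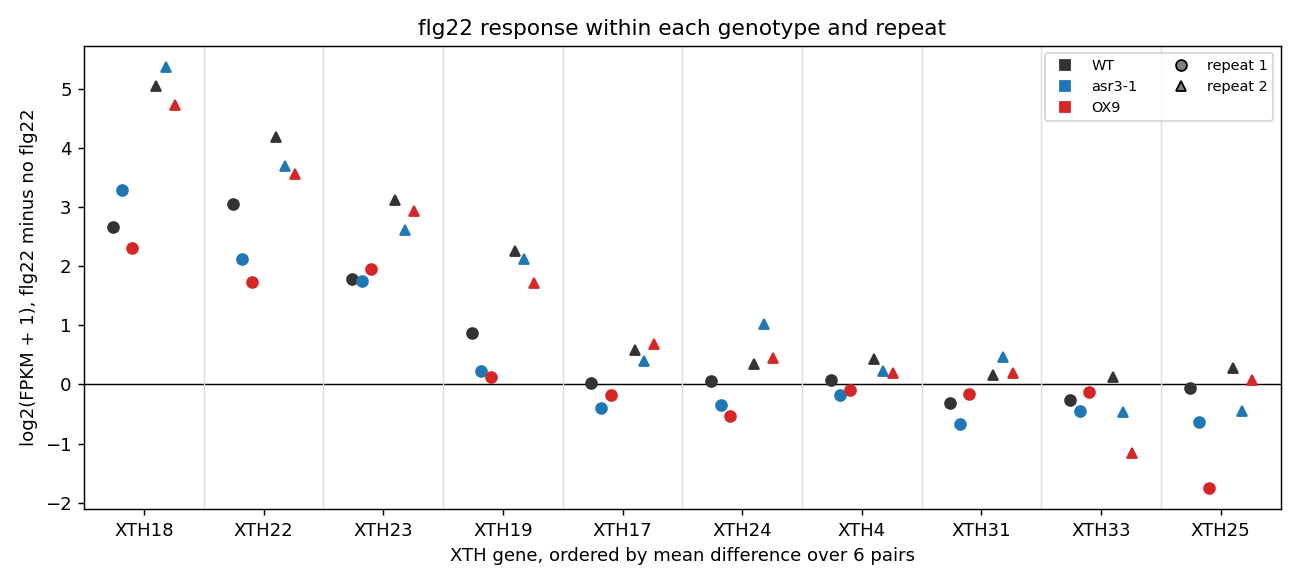
Difference of log2(FPKM + 1) between the flg22 and the untreated library of the same genotype and repeat for each of the 10 XTH genes, with 6 pairs per gene, genotype by colour and repeat by marker shape. XTH18, XTH22, XTH23 and XTH19 are above 0 in all 6 pairs. Their repeat 2 pairs are all above their repeat 1 pairs, a separation that was not counted over all genes.

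The other 6 members gave mean differences between -0.43 and 0.19, none past the test (limma, adjusted p from 0.569 to 1). XTH17, whose coding sequence is the most like that of XTH18, was at 33.6 and 43.3 FPKM in untreated WT and 34.2 and 65.7 with flg22. It was at 29.3 and 36.6 against 21.9 and 48.7 in asr3-1, and at 29.7 and 38.9 against 26.1 and 63.3 in OX9. Here flg22 libraries of repeat 1 were level with or below the untreated ones and those of repeat 2 above them, a pattern that leaves the mean difference at 0.19 (SE 0.30).

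XTH24, which lies on the other side of XTH18, went from 241.8 to 251.3 FPKM in repeat 1 and from 891.2 to 1137.3 in repeat 2 in WT. It went from 400.1 to 315.4 and from 601.4 to 1222.6 in asr3-1, and from 381.1 to 262.9 and from 632.0 to 862.5 in OX9. The repeats were far apart in every group, and treated and untreated libraries overlapped. The mean difference was 0.17 (SE 0.58), and it turned to -0.03 under quantile normalization.

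XTH4 was the steadiest member, with a highest library only 1.74 times its lowest. It stood at 411.7 and 443.1 FPKM in untreated WT and 434.3 and 599.2 with flg22, at 494.2 and 446.0 against 436.1 and 523.6 in asr3-1, and at 366.9 and 471.5 against 344.0 and 538.3 in OX9. The mean difference was 0.11 (SE 0.15), and -0.10 under quantile normalization.

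XTH31, an enzyme with xyloglucan hydrolase activity, ran the other way between repeats. It was at 65.1 and 17.8 FPKM in untreated WT and 52.3 and 20.1 with flg22, at 63.6 and 20.6 against 39.4 and 28.7 in asr3-1, and at 59.0 and 43.4 against 52.7 and 49.5 in OX9. Treated libraries were below their counterparts in all 3 pairs of repeat 1 and above them in all 3 of repeat 2, with a mean difference of -0.06 (SE 0.41).

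The lowest members lay near the filter of 1 FPKM. XTH25 was at 1.55 and 1.84 FPKM in untreated WT and 1.43 and 2.43 with flg22, at 6.71 and 2.41 against 3.94 and 1.51 in asr3-1, and at 4.47 and 1.98 against 0.62 and 2.14 in OX9. Its difference of -0.43 (SE 0.31) was the lowest of the members, although the gene lies 565 bases from XTH22. XTH33, a member with a predicted membrane anchor, ranged from 1.40 to 3.58 FPKM untreated and from 0.83 to 2.92 with flg22 and was lower in 5 of 6 pairs (difference -0.39, SE 0.24). For both genes the added 1 FPKM makes the log2 difference smaller than that of the raw levels.

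Taken genotype by genotype without the block, no member passed the test in WT, asr3-1 or OX9, where 0.101%, 0.193% and 0.0% of all genes were called higher. At an unadjusted p under 0.05 the members that were higher numbered 3 in WT, 2 in asr3-1 and 2 in OX9. Of the 20753 genes tested, 1407, 1631 and 949 had such a p in either direction. The block changed these calls. In WT XTH22 (log2 3.62, adjusted p = 0.0425) and XTH23 (2.46, adjusted p = 0.0468) then passed, against 0.52% of all genes higher and 0.0434% lower, while XTH18 (3.86) did not (limma, adjusted p = 0.088). In asr3-1 XTH18 (4.33, adjusted p = 0.0482), XTH22 (2.91, adjusted p = 0.0476) and XTH23 (2.18, adjusted p = 0.0438) passed by limma, against 1.59% of all genes higher and 0.222% lower. In OX9 no member passed with it either, with 3.52 for XTH18, 2.65 for XTH22, 2.45 for XTH23 and 0.93 for XTH19 (limma, adjusted p from 0.107 to 0.562). Without single libraries the blocked counts lay between 0 and 2 in WT and in asr3-1.

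Whether ASR3 alters these levels was asked by setting each line against WT, which serves as the shared reference of all these comparisons. Neither asr3-1 nor OX9 gave a member past the test, untreated or with flg22, blocked or not, and 0 members had an unadjusted p under 0.05 in these fits. Over all genes 0.0% were called in asr3-1 in either condition, and 0.00964% without and 0.00482% with flg22 in OX9. ASR3 itself was thus not called in asr3-1, at log2 -0.765 untreated and -1.079 with flg22, blocked or not. Member differences ran from -0.27 to 0.93 in untreated asr3-1, from -0.52 to 0.28 in treated asr3-1, from -0.16 to 0.73 in untreated OX9 and from -0.36 to 0.64 in treated OX9, on the log2(FPKM + 1) scale. The differences between the flg22 response of a line and that of WT ran from -0.71 to 0.48 for asr3-1 and from -0.97 to 0.09 for OX9. Again 0 members were called or at an unadjusted p under 0.05, and 0.0% of all genes were called. Of the 20753 genes tested, 80 for asr3-1 and 95 for OX9 had such an unadjusted p. With the block 401 and 440 had it.

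Libraries of a line and of WT were also matched by repeat and treatment. XTH22 was the 1 member higher in asr3-1 in 4 of 4 pairs, as were 11.3% of all genes, by 1.16 and 0.69 on the log2 scale without flg22 and by 0.23 and 0.19 with it, repeat 1 first. In OX9 it was higher in the 2 untreated pairs (1.04 and 0.41) and lower in the 2 treated pairs (-0.27 and -0.21). The fitted differences were 0.92 and 0.73 in the untreated lines, each with SE 1.56 without the block and 0.51 with it, and neither passed (limma, adjusted p = 1 in both fits). XTH17 was the 1 member lower in 4 of 4 pairs in asr3-1 and also the 1 in OX9, with values from -0.62 to -0.05, as were 6.62% and 9.23% of all genes. In OX9 0 members were higher in 4 of 4 pairs, against 8.49% of all genes. No such direction was kept by XTH31, which in OX9 was higher by 1.24 and 1.26 in repeat 2 and close to WT in repeat 1 (-0.14 and 0.01). Untreated XTH25 was higher in asr3-1 by 1.60 in repeat 1 and by 0.26 in repeat 2, a fitted difference of 0.93 (SE 0.54, adjusted p = 1 by limma).

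More members passed between the repeats than between a line and WT. The repeat comparison set 6 libraries against 6, and each line comparison 2 against 2. The repeat difference was not the larger in every member. In XTH25 it was -0.24, beside 0.93 for untreated asr3-1 against WT. In XTH33 it was -0.51, beside 0.55 for untreated OX9 against WT. In a model with group and repeat, repeat 2 was called higher in 7 members and lower in 2, against 27.9% and 24.8% of all genes, so a repeat difference was common across the transcriptome. XTH22 was higher by 2.43 (SE 0.30, adjusted p = 0.0006) and XTH24 by 1.505 (SE 0.24, adjusted p = 0.0018 by limma). XTH31 (log2 -0.95) and XTH33 (log2 -0.51) were lower (limma, adjusted p = 0.0167 and 0.0235). The total of 9 called falls to 5 in a fit with the repeat but without the group means. It is also 5 without either flg22 library of asr3-1 or of OX9. No share of all genes stands beside these lower counts. Of the 9, 4 are lost when single libraries are left out. These are XTH4 (limma, adjusted p up to 0.117), XTH19 (up to 0.116), XTH18 (up to 0.114) and XTH33 (up to 0.0599), while XTH17, XTH22, XTH23, XTH24 and XTH31 passed without any 1 library. In XTH24 and XTH17 the 6 libraries of repeat 2 all lay above the 6 of repeat 1, as in 15.5% of all genes, and the reverse, seen in 13.5% of all genes, held for 0 members. For XTH18 and XTH19 the repeats were alike without flg22 and apart with it: untreated XTH18 ranged from 24.8 to 38.3 FPKM in repeat 1 and from 34.5 to 37.4 in repeat 2, and treated XTH18 from 193.5 to 251.8 and from 945.6 to 1593.0. XTH22 instead was already apart untreated, at 28.7 to 65.2 against 121.8 to 196.8 FPKM.

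The size of the flg22 response was therefore tested between repeats. Each repeat was 1 experiment, so SE and p here, and in the comparison of repeats above, measure how far the groups differed in their shift. They do not measure how repeats of the experiment vary. It was larger in repeat 2 in 5 of 10 members, against 7.69% of all genes called in that direction, and smaller in 0, against 2.72%. XTH18 rose by 2.31 to 3.29 log2 units in the 3 pairs of repeat 1 and by 4.74 to 5.38 in those of repeat 2, a difference of 2.30 (SE 0.19, adjusted p = 0.0002). For XTH22 the ranges were 1.74 to 3.05 and 3.56 to 4.19 (difference 1.51, SE 0.16, adjusted p = 0.0005), and for XTH23 1.75 to 1.96 and 2.62 to 3.13 (difference 1.07, SE 0.16, adjusted p = 0.0030). XTH19 gave 0.13 to 0.88 and 1.73 to 2.26, a difference of 1.63 (SE 0.33, adjusted p = 0.021) that was lost without an untreated library of WT or OX9 (adjusted p up to 0.086). XTH17 gave -0.40 to 0.02 and 0.40 to 0.69, a difference of 0.75 (SE 0.12, adjusted p = 0.0043), all by limma. XTH24 (0.88, SE 0.35) did not pass (limma, adjusted p = 0.216), nor did XTH25, XTH31, XTH33 and XTH4. The labels give no more about how the repeats differed, and their part in these values was not tested.

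These shifts changed the make-up of the family's transcript pool. Summed over all 33 XTH genes, the level was 1973 to 2351 FPKM untreated and 1953 to 2368 with flg22 in repeat 1, and 2277 to 2533 untreated and 5180 to 6804 with flg22 in repeat 2. The sum thus stayed in one range in repeat 1 and stood apart in repeat 2. XTH22 and XTH18 together made up 3.31 to 4.95% of it untreated and 20.3 to 22.8% with flg22 in repeat 1, and 6.27 to 10.2% and 55.5 to 61.0% in repeat 2. XTH22 came next after XTH4 and XTH24 in all 3 treated libraries of repeat 1 and first in all 3 of repeat 2, followed by XTH18. The 23 other XTH genes summed to 1017 to 1241 FPKM untreated and 798.2 to 953.9 treated in repeat 1, and to 856.7 to 948.2 and 608.8 to 638.1 in repeat 2, lower with flg22 in each genotype and repeat.

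**Figure D3:**
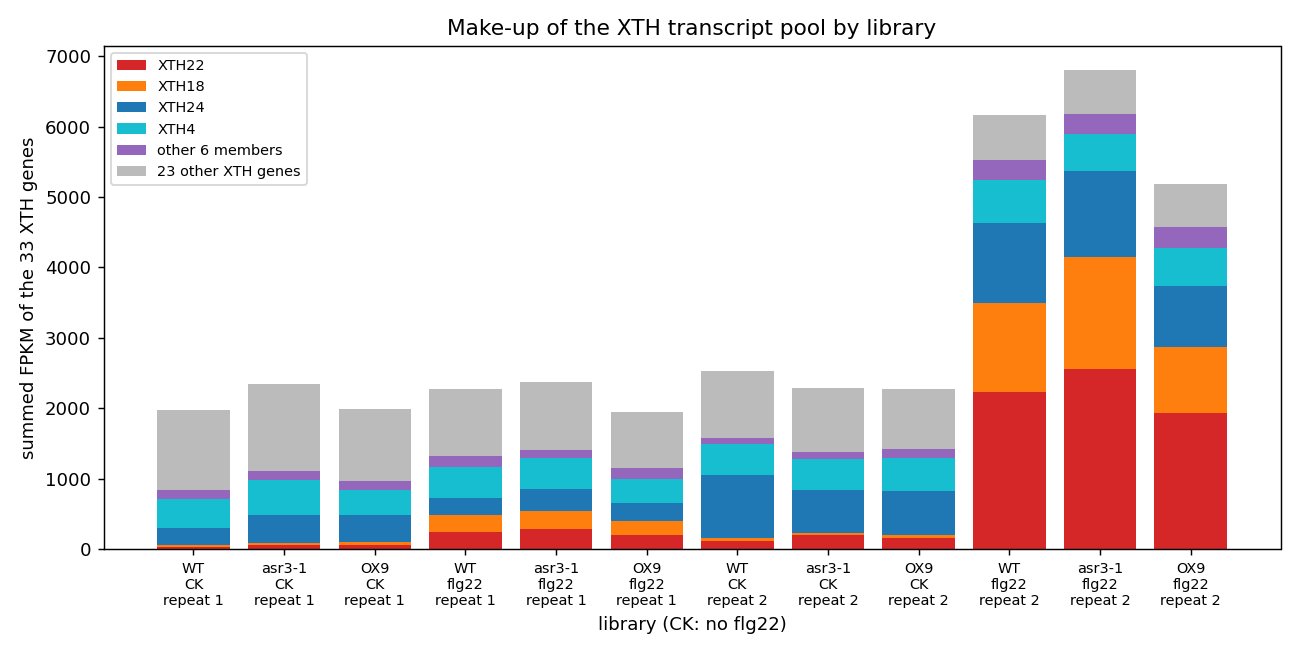
Summed FPKM of the 33 XTH genes in each of the 12 libraries, stacked by gene or gene group, repeat 1 on the left and repeat 2 on the right. XTH22 and XTH18 fill 55.5 to 61.0% of the bar in the flg22 libraries of repeat 2 and 3.31 to 10.2% in untreated libraries.

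Of those 23 other XTH genes 19 were tested, and 3 were above 0 over the 3 genotypes. The median difference of the 19 was -0.29, against -0.03 for all genes tested and 0.18 for the 10 members. The members were chosen with earlier results of these data known, so this contrast is a description. XTH6 was called lower (log2 -0.64, SE 0.10, adjusted p = 0.012 by limma), from 203.7 to 296.8 FPKM untreated to 135.2 to 190.0 with flg22, ranges that did not overlap. The lowest differences were those of XTH13 (-0.84), XTH27 (-0.75) and XTH12 (-0.66), and the highest those of XTH10 (0.31), XTH20 (0.14) and XTH11 (0.00), none past the test without the block. With it 4 were called lower by limma, XTH6, XTH16, XTH14 and XTH27, against 5.69% of all genes. XTH13 and XTH14 are direct neighbours of members, 686 bases from XTH25 and 363 bases from XTH23, on the same strand. XTH14 (-0.29) thus lies beside XTH23 (2.37), and XTH25 (-0.43) beside XTH22 (3.06), with estimates of opposite sign. The negative signs are uncertain, since XTH14 passed only with the block. XTH25 was near 1 FPKM and passed in neither fit (limma, adjusted p = 0.685, and 0.424 with the block). It was higher in 2 pairs and lower in 4.

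**Figure D4:**
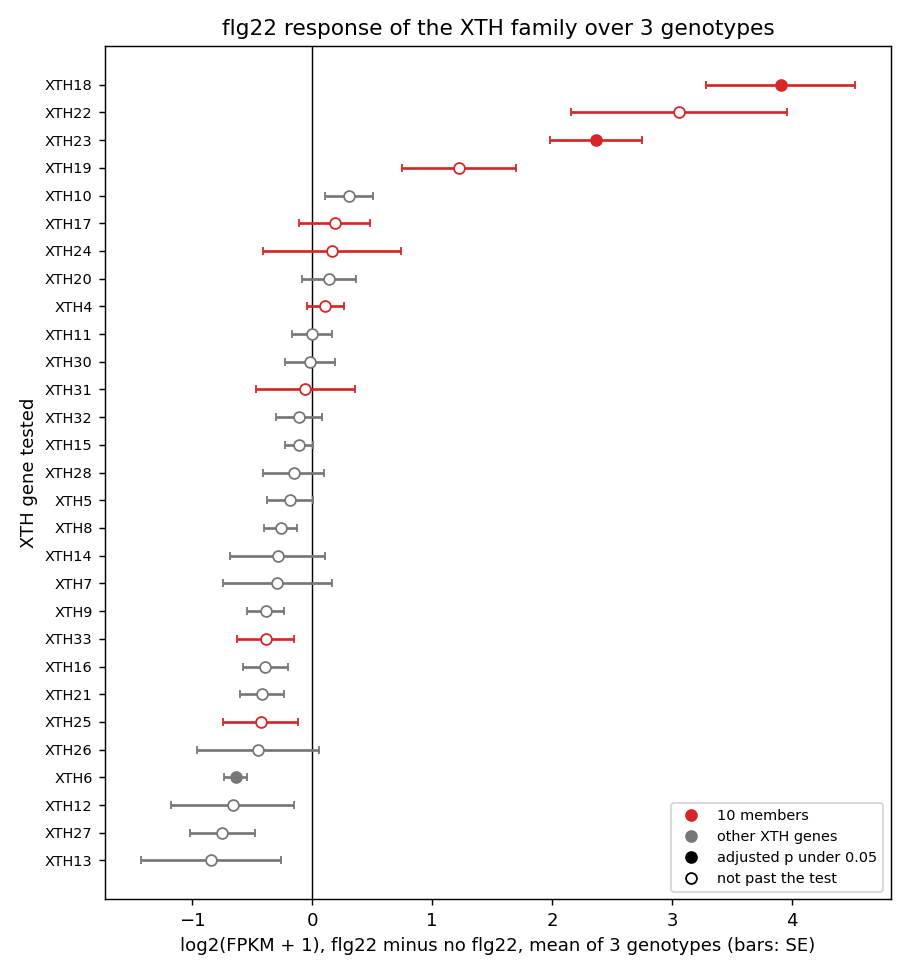
Mean difference of log2(FPKM + 1) between flg22 and untreated libraries over 3 genotypes for the 29 XTH genes tested, with bars for the SE, the 10 members in red and other XTH genes in grey, filled where the adjusted p was under 0.05. XTH18, XTH22, XTH23 and XTH19 head the family at 3.90 to 1.22, and XTH6 is filled at -0.64.

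Other genes of the same biology were read from fixed lists. Of the other touch genes, CAM2, a calmodulin, was higher over the 3 genotypes (log2 1.32, adjusted p = 0.018), as was the calmodulin-like TCH3 (3.18, adjusted p = 0.0291 by limma). TCH2, also calmodulin-like, gave 1.23 and passed only with the block (limma, adjusted p = 0.159 without and 0.0191 with it). Untreated TCH3 was higher in repeat 1 (265.0, 351.8 and 433.5 FPKM in WT, asr3-1 and OX9) than in repeat 2 (81.8, 114.0 and 185.3), the reverse of untreated XTH22, while both were higher in treated repeat 2 libraries. The flg22 response of all 3 was larger in repeat 2, by 3.43 for TCH3, 1.25 for TCH2 and 1.05 for CAM2 (limma, adjusted p = 2.27e-05, 0.0015 and 0.0005). The part of handling in the values of XTH22 and these 3 genes was not tested.

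Among 10 genes that build or trim xyloglucan, none was called without the block, 4 were higher at an unadjusted p under 0.05, and 3 passed by limma with the block, against 10.1% of all genes higher. These were CSLC4, the glucan synthase of the backbone (log2 1.42), and the xylosyltransferases XXT1 (0.88) and XXT5 (0.71), with adjusted p of 0.0411, 0.0286 and 0.0199. CSLC4 went from 18.9 to 35.2 and from 25.4 to 129.6 FPKM in WT, repeat 1 first, and its response was larger in repeat 2 by 1.88 (adjusted p = 0.0002 by limma). Alpha-expansins, proteins that loosen the wall without cutting it, had 16 of 24 genes tested and 0 called over the 3 genotypes by limma, with 2 lower at an unadjusted p under 0.05. With the block 4 were lower, EXPA8 (-0.61), EXPA11 (-0.63), EXPA5 (-0.35) and EXPA10 (-0.32), against 5.69% of all genes, and 0 higher. In repeat 2 13 of the 16 were lower than in repeat 1, against 24.8% of all genes, where 7 of 10 members were higher. Of the marker lists, 0 root and 0 green tissue markers were called over the 3 genotypes by limma, with 2 of each lower at an unadjusted p under 0.05. With the block 4 of 10 green tissue markers were lower by limma, against 5.69% of all genes, and 0 root markers were called; all 10 green tissue markers were below 0, from -0.33 to -0.05, beside the rises of XTH18, XTH22 and XTH23, and their part in those was not tested.

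The members' patterns over the 12 libraries were compared as Pearson correlations of log2(FPKM + 1) with the mean of each repeat taken out, a description in which libraries of a treatment share their shift. XTH18 and XTH23 stood at 0.99, XTH22 and XTH23 at 0.98, XTH18 and XTH22 at 0.97 and XTH18 and XTH19 at 0.90. Among the 19748 other genes compared, those most like XTH18 were AT1G05575, AT5G52750 and AT5G54860, each at 0.998 over 12 libraries. Most like XTH22 were FLOT1, a flotillin of the plasma membrane (0.994), AT4G23215 (0.993) and RAP (AT2G31890, 0.992), and most like XTH23 was AT1G07135 (0.995). For the rest the nearest gene stood at 0.99 for XTH17 (AT2G24390), 0.974 for XTH19 (AT2G12400), 0.957 for XTH24 (AT5G52970), 0.917 for XTH4 (BGLU33), 0.942 for XTH31 (MLP34), 0.955 for XTH25 (BHLH100) and 0.959 for XTH33 (AT1G02380).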

How the data were processed

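RNA of whole seedlings was sequenced in 12 libraries (6 groups of 2) as single reads of 100 nt, per the series' design text. The authors deposited FPKM, per the file headers, a level scaled to transcript length and library size, and how library size was set is not stated there. Per the submitters' processing notes the tools were Cuffdiff 2.2.1, TopHat2 2.0.12, cutadapt 1.0 and bcl2fastq 1.8.4, with the build TAIR10. FPKM gives no read number, so depth is unknown and no counting interval is given; 19137 to 19621 genes reached 1 FPKM in a library.

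Left out were 693 lines without an identifier and 88 identifiers listed more than once (176 lines), which left 33197. The test covered the 20753 genes that reached 1 FPKM in 2 or more libraries. The plan was a count model had counts been deposited; for FPKM it named limma on log2(FPKM + 1), which was used (R 4.3.3, limma 3.58.1, trend and robust moderation, 6 group means, 2-sided, Benjamini-Hochberg over all genes, threshold 0.05). The steps were tested on simulated data. Comparisons were flg22 against none per genotype and averaged over genotypes, each line against WT, differences of response, and repeat 2 against repeat 1, which has the group as a term. Repeat numbers pair libraries: the design text calls them independent repeats, and deviations of same-numbered libraries from their group means correlated at 0.568 to 0.805 across genes in all 15 pairs of groups. The fit without the block was the planned one, and blocked values stand beside it where a call of a gene or a count in the text changed.

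The members and gene lists were chosen with earlier results of these data known. All members are described. From the other XTH genes the 3 highest and 3 lowest, any called and the neighbours of members are named. From other lists up to 4 genes with the smallest p over the 3 genotypes are named, TCH3, CAM2 and TCH2 being a whole list, and for each member the gene most like it. The alternatives were other pseudocounts (0.1 and 5), no filter or one at 5 FPKM, median-of-ratios scaling, quantile normalization, the groups compared alone, the replicate block, a repeat-by-treatment term and each library left out. Positions and sequences are from the RefSeq annotation of TAIR10.1. Protein sequences were not used here, so identity was computed on coding sequences.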

Additional observations from a re-analysis of the deposited data

Results flagged for a closer look

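The response of 5 members to flg22 differed between the repeats by a test of the difference itself (limma with a repeat-by-treatment term, adjusted over all genes), each larger in repeat 2 on the log2(FPKM + 1) scale. The difference was 2.30 for XTH18, 1.63 for XTH19, 1.51 for XTH22, 1.07 for XTH23 and 0.75 for XTH17. In each of the 5 genes the 3 pairs of repeat 2 all lay above the 3 pairs of repeat 1. The genes were picked by the test on these same pairs, so this adds no support. The share of all genes with that separation was not counted. Of all genes tested 7.69% differed in the same direction by that test. The test measures the spread between genotypes within 2 single repeats, not how repeats of the experiment vary.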

How the results depend on the processing

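The count of members called higher over the 3 genotypes was 2. It was 4 with a repeat-by-treatment term beside the block, 0 to 3 when single libraries were left out, and 3 to 4 when they were left out under the replicate block, an alternative added after the data were seen. With the replicate block, which treats same-numbered libraries as paired, the count rose from 0 to 2 in WT and to 3 in asr3-1 (0 to 2 in each without single libraries), went from 2 to 3 over the 3 genotypes, and stayed at 0 in OX9 and in all line comparisons. Members called between repeats numbered 9, 5 in a fit with the repeat but without the group means, and 5 to 8 without single libraries. The count was 5 without either flg22 library of asr3-1 or of OX9. No share of all genes is given for counts with the repeat-by-treatment term, without the group means or without single libraries. Scaling, filter and pseudocount settings left all counts of called members within 1.5 times their value, and members higher in all 6 pairs numbered 4 under each scaling and filter tried. A change of direction was seen only for values that had not passed the test. Under quantile normalization the pooled difference became -0.097 for XTH4 and -0.028 for XTH24, and the difference of response between repeats -0.036 for XTH4. With single libraries left out, the pooled difference ranged from -0.021 to 0.395 for XTH17, -0.359 to 0.247 for XTH31 and -0.195 to 0.529 for XTH24. With the block it turned to 0.117, 0.116, 0.07, 0.047, 0.046 and 0.022 for XTH31 and to -0.017 for XTH24. The same step gave -0.073 to 2.422 for the response of XTH19 in asr3-1 and -1.082 to 0.035 for XTH17 in treated asr3-1 against WT. For XTH22 against WT it gave -0.10 to 1.94 and -0.295 to 1.751 in untreated asr3-1 and OX9, and -1.382 to 1.801 and -1.863 to 1.378 in the treated lines (with the block, -0.239 and -0.217 in asr3-1 and 0.207 and 0.241 in OX9 where the sign turned). Its differences of response ranged from -2.30 to 0.88 for asr3-1 and from -2.59 to 0.65 for OX9, and the difference of response of XTH33 between repeats from -0.469 to 0.023. The causes were not tested. XTH25 and XTH33 have no value under the filter at 5 FPKM, where they were not tested. With 2 pooled libraries a group and no read numbers, the low levels of XTH25 and XTH33 are the least certain.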
